A study of Saccharomyces cerevisiae with 6 samples.

Results

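The regions described here are the short binding clusters of the helicase Rrm3 that lie clear of the TREX-2 subunits Thp1 and Sac3 in the yeast Saccharomyces cerevisiae. They were chosen by length and overlap in the lists themselves: an Rrm3 cluster was taken if it measured under 300 bp, about the resolution stated for the array, and shared no base with any Thp1 or Sac3 cluster. Of the 7102 Rrm3 clusters, 2083 (29.3%, 95% Wilson interval 28.3 to 30.4%) met both conditions, and they are called short free clusters below. Over Rrm3 clusters of any length, 4824 of 7102 (67.9%) were free of Thp1 and Sac3. Since length and overlap selected the regions, these counts are descriptions and carry no test.

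Rrm3 is a DNA helicase of the Pif1 family that unwinds DNA in the 5′ to 3′ direction and travels with the replication fork. It is known for helping forks through tightly bound protein-DNA complexes such as tRNA genes, the rDNA and telomeres, and its accumulation on chromatin is used as a sign of hindered replication. Thp1 and Sac3 are subunits of THSC/TREX-2, a complex at the nuclear pore that couples transcription to the export of mRNA, and cells without it show transcription-dependent defects in replication.

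The study mapped the 3 proteins by ChIP-chip, in which DNA recovered with a FLAG-tagged protein is hybridized to a tiling array and read against the DNA left in the supernatant. All cells were asynchronous cultures in rich YPD medium at 30°C. All strains were MATa with the alleles ade2-1 and can1-100 and marker mutations in LEU2 and HIS3. The labels list trp1-1 for all of them too, but the study's strain list does not give it for the parent of the Rrm3 strain. Thp1 and Sac3 were mapped in ura3-1 cells, otherwise wild type, that carried THP1::FLAG::KanMX or SAC3::FLAG::KanMX. Rrm3 was mapped as Rrm3::FLAG in strain S3RBb-5B, which has the deletions sac3::KanMX and bar1Δ and the thymidine kinase insertion ura3::URA3/GPD-Tk(7x). The Rrm3 clusters therefore come from cells that lack Sac3, and the Thp1 and Sac3 clusters from cells that have both proteins, so an Rrm3 cluster free of Thp1 and Sac3 is free of the places where these sat in another strain. The effect of the strain cannot be told apart from that of the protein mapped.

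There was 1 list per protein, and the Rrm3 list was taken to combine 2 repetitions, so no value has a replicate error. Intervals cover counting error only. The lists held 2485 Thp1 and 2282 Sac3 clusters, which joined into 2785 stretches, and all 3 lists covered the 16 chromosomes. A list gives the start and the end of each cluster and no signal height, so a short cluster cannot be called weak or strong. As its span, each chromosome was given the last base that any of the lists covers, and the spans add up to 12069093 bp. Starts in the lists were read as counted from 0 and are printed counted from 1. The lists do not state this, and if they count from 1 each printed start is 1 bp too high and each length 1 bp too short. Because the lists name no genome build the regions were not assigned to genes and no sequence is shown.

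Short free clusters were numerous but covered little DNA. Together they spanned 427435 bp, which is 3.54% of the chromosomes and 8.18% of all bases bound by Rrm3. Their mean length was 205 ± 56.5 bp (SD, n = 2083 clusters) and their median 207 bp, from 100 bp, the shortest run the cluster caller accepts, up to 299 bp. The shortest bin held the fewest. The bins of 100 to 150, 150 to 200, 200 to 250 and 250 to 300 bp held 20.6%, 26.1%, 26.3% and 27.0% of them.

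The longer an Rrm3 cluster, the more often it met a Thp1 or Sac3 cluster, and this gradient was already present below 300 bp. Of the 2176 short Rrm3 clusters, 95.7% (94.8 to 96.5%) were free, against 55.6% of the longer ones. The share was 98.8% at 100 to 150 bp (429 of 434), 97.3% at 150 to 200 bp, 95.6% at 200 to 250 bp and 92.1% at 250 to 300 bp (563 of 611). It went on down to 83.5% at 300 to 350 bp, 59.8% at 500 to 1000 bp and 23.4% from 1000 bp (332 of 1416). Among neighbouring bins of 50 bp up to 400 bp, the largest step, from 92.1% to 83.5%, fell at the length limit. Just inside the limit, at 295 to 299 bp, 69 clusters were free and 3 touched Thp1 or Sac3, and just outside it, at 300 to 304 bp, 52 were free and 4 touched.

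**Figure D1:**
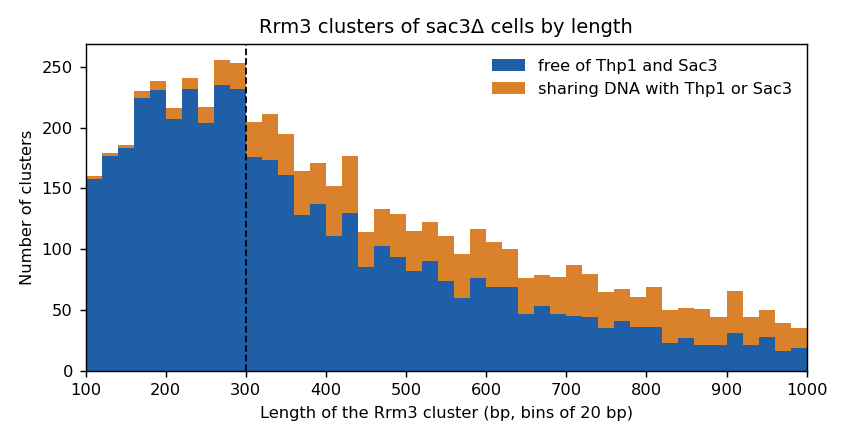
Number of Rrm3 clusters of sac3Δ cells by length in bp (bins of 20 bp), split into those free of Thp1 and Sac3 and those sharing DNA with them; the dashed line is the limit of 300 bp. The sharing part grows with length, from 1.15% of the clusters at 100 to 150 bp to 7.86% at 250 to 300 bp.

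A longer cluster covers more DNA and has more chances to meet another cluster. For clusters under 300 bp the same shares were therefore worked out for placement without preference. Clusters of 300 bp or more have no such value beside them. For each short cluster every place of its own length on its own chromosome was counted that kept more than 250 bp from all longer Rrm3 clusters, because the caller joins runs across gaps of up to 250 bp. This is a full count of places and not a sampling, and it gives no p. Of these places, 98.9% were free of Thp1 and Sac3 and 1.14% touched them. The short clusters themselves touched Thp1 or Sac3 in 4.27% of cases, so although almost all were free, fewer were free than among the places open to them. This excess was largely built in. All but 38 of 2485 Thp1 and 7 of 2282 Sac3 clusters carried Rrm3. Apart from these, any that met no longer Rrm3 cluster had to meet a short one. No preference of short Rrm3 clusters for Thp1 or Sac3 can therefore be read from the comparison. The gap to the places grew with length. Clusters of 100 to 150 bp touched in 1.15% of cases against 0.883% of places, and those of 150 to 200 bp in 2.68% against 1.10%. At 200 to 250 bp the values were 4.37% against 1.19%, and at 250 to 300 bp 7.86% against 1.30%.

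The 93 short Rrm3 clusters that did touch Thp1 or Sac3 were longer, with a median of 253 bp. Of these, 51 touched Thp1 only, 15 Sac3 only and 27 both. In 83 of the 93, every Thp1 or Sac3 cluster touched was itself under 300 bp, and 10 touched a longer one. The shared places were therefore mostly small clusters in both lists. Chromosome IV held 28 of the 93, and 260 of all 2176 short Rrm3 clusters. Of its 28, 23 touched Thp1 only, 5 both and 0 Sac3 only, and all 28 met only protein clusters under 300 bp. The 65 on the other chromosomes were split into 28 with Thp1 only, 15 with Sac3 only and 22 with both.

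There were 173 short free clusters per Mb of chromosome (95% Poisson interval 165 to 180), and the density was similar from chromosome to chromosome. It ran from 151 per Mb on chromosome IV (133 to 172, 232 clusters) to 208 per Mb on chromosome V (172 to 249, 120 clusters), with a median of 176. Only the interval of chromosome IV left out the genome value, and narrowly, with an upper limit of 172.2 against 172.6 per Mb. That of chromosome V just took it in, with a lower limit of 172.5. Among 16 intervals at 95%, such a miss can come from counting error alone. The low value of chromosome IV depended on the overlap condition. With the 28 touching clusters counted as well, chromosome IV had 170 short Rrm3 clusters per Mb, and 4 chromosomes had fewer, while the others ran from 163 to 211. With Sac3 alone as the condition it had 166 per Mb, and 5 chromosomes had fewer. The median length of short free clusters ranged from 192 to 215 bp among chromosomes.

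**Figure D2:**
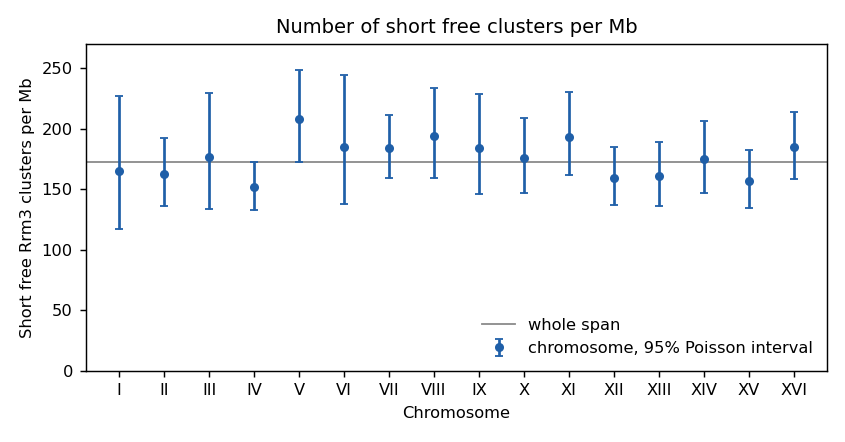
Short free Rrm3 clusters per Mb on each chromosome (points) with exact 95% Poisson intervals (bars) and the value over the whole span (line, 173 per Mb). Chromosome IV is lowest with 151 per Mb and chromosome V highest with 208 per Mb.

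Within 20 kb of the chromosome ends the density was lower. There were 75 short free clusters, or 117 per Mb (92.2 to 147), against 176 per Mb (168 to 184) farther in. The ends were also filled with other clusters: longer Rrm3 clusters covered 57.6% of them against 38.6% farther in, and Thp1 or Sac3 clusters covered 36.3% against 11.6%. Counted over the DNA outside longer Rrm3 clusters, the ends had 276 per Mb (217 to 346) and the remainder 286 (274 to 299), and these intervals overlap.

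In windows along the chromosomes, the number was also lower where longer Rrm3 clusters covered more DNA. Over the 595 windows of 20 kb the number of short free clusters averaged 3.47 with a variance of 3.95, a ratio of 1.14, where independent even placement gives a ratio near 1. In 23 windows there was none, against 18.5 by the formula for even placement. In the 29 windows with under 20% of their bases in longer Rrm3 clusters the mean was 6.10, and in the 38 windows with 60% or more it was 1.05. Part of this is space, since a short cluster cannot lie on a longer one. Per Mb of DNA outside longer clusters the values were 362 and 179, still apart, but that DNA includes the margins of 250 bp beside each longer cluster, which are closed to separate clusters too. Across the 16 chromosomes, number per Mb and percent covered by longer clusters were only weakly related (Pearson r -0.314).

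The richest windows held 10 short free clusters each. They were VII 280001 to 300000, XII 680001 to 700000 and XIII 320001 to 340000, with 14.4%, 11.0% and 20.1% of their bases in longer Rrm3 clusters. Thp1 and Sac3 covered 5.83% of the first, 0.83% of the second and 0% of the third.

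Short free clusters lay close to longer Rrm3 clusters. The edge-to-edge distance to the nearest longer cluster had a median of 632 bp (595 to 659), and the middle 50% lay between 391 and 1153 bp. The maximum was 6234 bp. Within 1 kb of a longer cluster lay 1440 of the 2083 (69.1%), and 5 lay beyond 5 kb. The nearest Rrm3 cluster of any length was at a median of 477 bp (458 to 493), a value close to that of the longer free clusters, 485 bp.

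The places open to such clusters lay somewhat farther from longer ones, provided that they too kept more than 250 bp away. Over all places open to a cluster of the same length on the same chromosome, more than 250 bp from longer Rrm3 clusters and free of Thp1 and Sac3, the median was 734 bp, a difference of -102 bp (observed minus places). It was -67 bp with a length limit of 200 bp and -66 bp when places also kept clear of the other short clusters, a setting chosen after seeing the data. With places allowed from 1 bp off longer clusters, which includes those that would have been joined, the sign turned to 172 bp. The excess sat at the short distances: 26.5% of the short free clusters were within 400 bp of a longer cluster against 19.97% of places, and 39.3% against 30.8% were within 500 bp. By 2 kb the values were 92.1% and 90.5%. The distance varied little with length inside the group, with medians of 624, 606, 583 and 679 bp from the shortest to the longest bin of 50 bp.

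**Figure D3:**
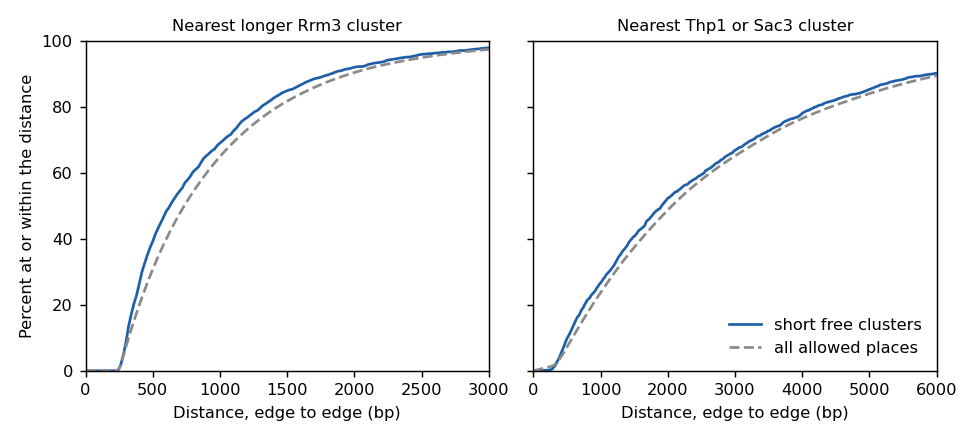
Percent of short free Rrm3 clusters (solid lines) and of all allowed places (dashed lines) at or within a given edge-to-edge distance in bp of the nearest longer Rrm3 cluster (left) and of the nearest Thp1 or Sac3 cluster (right). The medians are 632 against 734 bp on the left and 1909 against 2058 bp on the right, so the observed lines run slightly above the dashed ones.

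Thp1 and Sac3 were farther away, both from the short free clusters and from the places open to them. The distance to the nearest cluster of either had a median of 1909 bp (1792 to 1992), and the middle 50% lay between 940 and 3697 bp. Over the allowed places the median was 2058 bp, a difference of -149 bp (observed minus places, -266 to -66). The sign turned to 168 bp with places from 1 bp off longer Rrm3 clusters, and the interval took in 0 under 4 other settings: Thp1 alone, protein clusters of at least 300 bp, joining across 500 bp and a minimum run of 150 bp. The observed distances were above the places only at the very shortest range. There, 1.06% of short free clusters against 1.68% of places were within 300 bp. These places kept clear of longer Rrm3 clusters but not of the short ones that touched Thp1 or Sac3. A run closer to such a short cluster than the joining gap would have been merged with it. The shortfall is therefore at least in part built in, and the size of that part was not tested. From 500 bp outwards the short free clusters were nearer, with 9.84% against 7.20% within 500 bp and 52.4% against 48.8% within 2 kb. The longer free clusters had a median of 1797 bp (1722 to 1878), whose interval overlaps that of the short ones. The places and the longer free clusters were free of Thp1 and Sac3 as well. What being free does to the distance was therefore not tested.

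Many of the nearest Thp1 or Sac3 clusters sat on longer Rrm3 clusters. For 1205 short free clusters (57.8%, 55.7 to 59.95%), the nearest Thp1 or Sac3 stretch lay on the longer Rrm3 cluster next to them on that side. The same share over allowed places was not computed. All but 38 of 2485 Thp1 and 7 of 2282 Sac3 clusters carried Rrm3, so the share says little about the short free clusters. The nearest longer Rrm3 cluster touched Thp1 or Sac3 for 837 short free clusters (40.2%, 38.1 to 42.3%). This was close to the 38.9% over allowed places and below the 44.4% among all longer Rrm3 clusters. The interval takes in the value of the places, so a difference from them was not detectable.

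Genome-wide, Thp1 and Sac3 were at like distances, with medians of 2198 bp (2054 to 2341) and 2393 bp (2226 to 2541). Thp1 was nearer for 989 short free clusters, Sac3 for 916, and both were equally near for 178. Chromosome IV differed. There the medians for its 232 short free clusters were 1326 bp (1210 to 1531) to Thp1 and 2380 bp (1829 to 2968) to Sac3, and Thp1 was nearer for 213 of them (91.8%). On the other chromosomes the medians were 2372 bp to Thp1 and 2393 bp to Sac3, and Thp1 was nearer for 776 of 1851 (41.9%). Thp1 and Sac3 were each mapped once, and the part of the single Thp1 array in the value for chromosome IV was not tested.

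Only 22 short free clusters came within 300 bp of Thp1 or Sac3. Thp1 was the nearer or equally near for 17 of them and Sac3 the nearer for 5. Both proteins were within 300 bp for 5 of the 22. The nearest of all, chosen for naming after its value was seen, was the 101-bp cluster at VII 4016 to 4116, which lay 65 bp from a Thp1 cluster at VII 4182 to 4626 that carried no Rrm3. The next, the 178-bp cluster at VII 959933 to 960110, lay 91 bp from a Sac3 cluster at VII 960202 to 960856. Thp1 or Sac3 clusters without any Rrm3 were rare. They numbered 38 of 2485 for Thp1, of which 3 had a short free cluster within 300 bp, and 7 of 2282 for Sac3, of which 0 did.

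At the other extreme, 303 short free clusters (14.5%) were beyond 5 kb from Thp1 and Sac3, against 15.9% of places, and 53 (2.54%) were beyond 10 kb, against 2.61%. The 5 farthest lay in 2 places. On chromosome XIV they were the clusters at 747905 to 748159, 749048 to 749161 and 745169 to 745369, with 20529, 19527 and 18660 bp to the nearest Thp1 or Sac3. On chromosome XIII they were those at 327803 to 327934 and 328325 to 328481, with 19635 and 19088 bp. Of the 53 beyond 10 kb, 16 were on chromosome XIII, which held 149 of all 2083 short free clusters. The 53 were spread over 11 chromosomes. Among the stretches between Thp1 or Sac3 clusters, 3 held the most short free clusters and were named after their counts were seen: VIII 324776 to 362404 with 15, XIII 307425 to 347569 with 14 and XII 664053 to 695656 with 13.

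Spacing among the short free clusters themselves was close to that of even independent placement over whole chromosomes, with more neighbours within 1 and 2 kb and more long gaps. The 2067 distances between neighbours on a chromosome had a median of 3443 bp (3193 to 3694) and a mean of 5417 ± 5963 bp (SD). Even independent placement with the same mean on each chromosome, which also allows gaps of 250 bp or less that the caller closes, gives a median of 3728 bp and an SD equal to the mean, and the observed SD was 1.10 times the mean. Neighbours within 1 kb made up 19.1% against 17.0%, within 2 kb 34.8% against 31.1%, and within 10 kb 83.9% against 84.2%. Long gaps were more frequent than under even placement, with 66 distances over 20 kb against 53.3 and 16 over 30 kb against 9.01. The formula also spreads clusters over DNA under longer Rrm3 clusters and their margins, which is closed to short ones. The part of this uneven room in the differences was not tested.

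**Figure D4:**
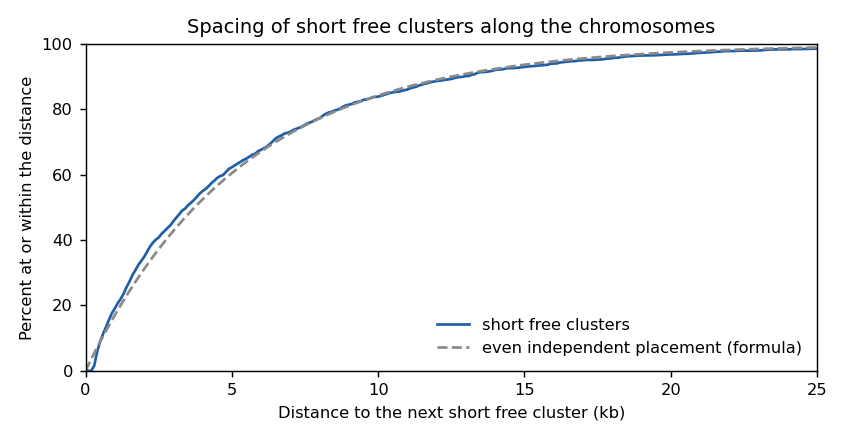
Percent of neighbouring short free Rrm3 clusters at or within a given edge-to-edge distance in kb (solid line), beside the formula for even independent placement on each chromosome (dashed line). The observed line starts below the formula (1.64% against 5.44% at 300 bp), meets it at 500 bp, is above it from 600 bp (34.8% against 31.1% within 2 kb) and is near it again at 10 kb (83.9% against 84.2%).

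Of the longest stretches without a short free cluster, also named after their values were seen, the first was largely filled with longer Rrm3 clusters and the others less so. The first, XII 447761 to 507824, measured 60064 bp and held 11 Rrm3 clusters, all longer. These included the longest of the list, 38099 bp, and Rrm3 covered 81.2% of the stretch and Thp1 or Sac3 62.7%. Chromosome XII also carries the rDNA, a known barrier region for forks, whose position was not looked up because the build is not named. The second, XIII 851672 to 904991, measured 53320 bp and had 54.4% of its bases under Rrm3 and 10.6% under Thp1 or Sac3. Of its 26 Rrm3 clusters, 24 were longer. The third, VII 535448 to 578174, had 66.0% and 43.0%. Over whole chromosomes, longer Rrm3 clusters covered 34.0% (chromosome XI) to 45.8% (chromosome I). Rrm3 clusters of any length covered 5226462 of the 12069093 bp of the whole span.

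Next to short free clusters, longer clusters touching Thp1 or Sac3 were somewhat rarer than among all Rrm3 clusters. Short free and longer free clusters were somewhat more frequent there, and no interval was worked out for these shares. Of the 4166 neighbours of short free clusters, 1316 (31.6%) were short free clusters too, which made up 29.3% of all Rrm3 clusters. Longer free clusters made up 40.01% of the neighbours and 38.6% of all, and longer clusters touching Thp1 or Sac3 27.1% and 30.8%. Longer clusters stood on both sides of 933 short free clusters (44.8%), on 1 side of 928 and on neither side of 222 (10.7%). If the order were free, 48.1% and 9.39% would have 2 and 0 longer neighbours.

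Runs of short free clusters with no other Rrm3 cluster between them were mostly brief. There were 974 single clusters, against 1040 for a free order, and 451 runs of at least 2 that held 1109 clusters (53.2%). Runs of 2, 3 and 4 numbered 309, 100 and 29 against 305, 89.5 and 26.2. Those of 5, 6, 7 and 8 numbered 7, 4, 0 and 2 against 7.70, 2.26, 0.662 and 0.194. The longest were VII 283824 to 295823 and XII 686245 to 694815 with 8 clusters each, followed by 4 runs of 6, of which IV 784819 to 792006 is named as the lowest in chromosome order. In the first, clusters of 126 to 281 bp lay 403 to 3560 bp apart, and the distances to Thp1 or Sac3 ran from 703 to 12483 bp. In the second, clusters of 109 to 295 bp lay 306 to 1854 bp apart, with 841 to 9149 bp to Thp1 or Sac3. The runs on chromosomes VII and XII lay within 2 of the 3 richest windows.

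Seen from the longer clusters, the genome had 4910 intervals between neighbouring longer Rrm3 clusters, with a median of 1033 bp, and all 2083 short free clusters lay inside such intervals. No short free cluster was found in 3493 intervals, 962 held 1, 309 held 2 and 146 held 3 or more. Intervals with one had a median of 2324 bp and those without 716 bp. The share of intervals that held at least 1 rose with length, from 8.71% at 602 to 1000 bp, where 602 bp is the shortest interval that can hold one, through 62.7% at 2 to 3 kb to 270 of 300 intervals over 4 kb.

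Relative to the room available, the shortest intervals held the most. Room was counted as the starts left to a short cluster that keeps more than 250 bp from both longer clusters. Intervals of 0.6 to 1 kb held 80 short free clusters where an even share of the room gives 46.7, or 0.833 per kb of room (0.661 to 1.04). Those over 4 kb held 632 where an even share gives 707, or 0.435 per kb (0.402 to 0.470). Over all intervals the value was 0.487 per kb (0.466 to 0.508). The intervals from 1.5 to 4 kb did not differ from it beyond counting error, with 0.516, 0.490 and 0.477 per kb. This count leaves out that a short cluster also closes the DNA around it to other short clusters. Since wide intervals often hold several and the narrowest at most 1, the value per kb of room falls with width in part by construction, and the size of that part was not computed.

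**Figure D5:**
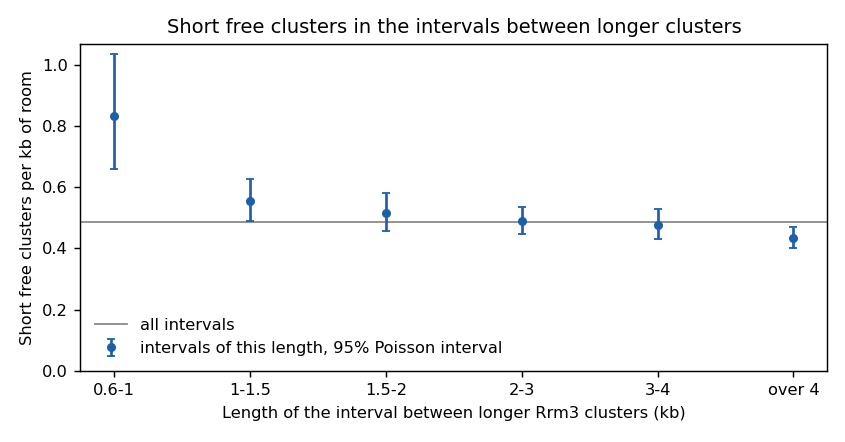
Short free Rrm3 clusters per kb of room in intervals between neighbouring longer Rrm3 clusters, by interval length in kb, with exact 95% Poisson intervals (bars) and the value over all intervals (line, 0.487 per kb). The value falls from 0.833 per kb in intervals of 0.6 to 1 kb to 0.435 per kb in those over 4 kb.

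No difference was detectable by whether the longer clusters at the sides carried Thp1 or Sac3. In intervals of at least 2 kb there were 0.379 short free clusters per kb of interval (0.348 to 0.411) with neither side carrying them, 0.371 (0.344 to 0.400) with 1 side and 0.339 (0.295 to 0.388) with both. These intervals overlap.

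The number of separate short clusters depends on the maximum gap over which runs are joined. When Rrm3 clusters were joined across gaps of up to 300 bp in place of 250 bp, 1840 of the short free clusters (88.3%) were left as they were. The number fell to 1314 (63.1%) at 400 bp, 978 (47.0%) at 500 bp and 308 (14.8%) at 1000 bp. At 500 bp a majority of them would therefore be part of a larger Rrm3 cluster.

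The 5 short free clusters farthest from any other Rrm3 cluster were XV 872304 to 872599 (296 bp), VII 629861 to 630069 (209 bp), V 9813 to 10016 (204 bp), X 308203 to 308308 (106 bp) and X 507691 to 507811 (121 bp). Their distances to the next Rrm3 cluster were 3019, 3012, 2987, 2821 and 2723 bp. No short free cluster was thus more than 3019 bp away from other Rrm3 binding. The first 4 of these were 3331, 3064, 3469 and 3127 bp from Thp1 or Sac3, and the fifth 12049 bp.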

How the data were processed

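Rrm3-FLAG, Thp1-FLAG and Sac3-FLAG were profiled by ChIP-chip. Arrays were analysed by the authors in Tiling Array Suite, for Rrm3 after quantile normalization. A cluster was a run of probes with more signal in the IP than in the supernatant and P below 0.01, at least 100 bp long, in which gaps of up to 250 bp were bridged. The files hold, as deposited, only where each cluster starts and ends (bp). The title of the Rrm3 list is what ties it to sac3Δ. Of 6 samples, the 2 of Rrm3 in thp1Δ cells were not analysed here.

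A single base in common (1 bp) made 2 clusters overlap. Distances are edge to edge. Shares have 95% Wilson, densities exact Poisson, and medians binomial order-statistic intervals. Counting of members, distances and places was tested on simulated data. Regions were named by fixed rules (farthest 5, longest 3 runs, 3 fullest windows, extreme chromosomes) unless stated. The regions and rules were chosen with earlier results of these data known. Other limits, gaps, lists and sets of places (12) were tried as alternatives, and 1 more was added after seeing the data. Python 3.11.15, numpy 2.4.6, pandas 2.3.3, scipy 1.17.1, numba 0.67.0 and matplotlib 3.10.9 were used.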

Additional observations from a re-analysis of the deposited data

How the results depend on the processing

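Of 81 values recomputed under the alternatives, 58 stayed within the counting interval (for the number of clusters, within 1.5 times), 21 moved outside it and 2 changed sign. A length limit of 200 bp gave 973 short free clusters, 98.0% of short clusters free, a median of 519 bp to the nearest longer cluster, a spacing of 7969 bp and a longer-cluster median 67 bp under that of allowed places (observed minus places -67 bp). A limit of 400 bp gave 91.5% free, 804.5 bp and a spacing of 2396.5 bp. Asking for more than 300 bp from Thp1 and Sac3 gave 94.7% free. With Thp1 alone the median distance to it was 2192 bp, and with Sac3 alone 98.1% were free and the median was 2364 bp. With Thp1 and Sac3 clusters of at least 300 bp only, 99.5% were free and the median was 4199.5 bp. Joining Rrm3 clusters across 500 bp left 978 short free clusters, at medians of 874.5 bp to longer clusters and 2323 bp to Thp1 or Sac3 and a spacing of 6880 bp. A minimum run of 150 bp gave a spacing of 4349.5 bp, and leaving out chromosome IV 96.6% free. Allowing places from 1 bp off longer clusters turned the differences from places to 172 bp (longer) and 168 bp (Thp1 or Sac3), since it adds places where a run would have been joined. Keeping places away from short clusters too, added after seeing the data, gave -66 bp for the longer clusters. For Thp1 or Sac3, the interval of the difference from places took in 0 with Thp1 alone (-271 to 14 bp), protein clusters of at least 300 bp (-432 to 27 bp), joining across 500 bp (-240 to 129 bp) and a minimum run of 150 bp (-242 to 5 bp). No paired analysis was possible because each protein has a single list and the 2 Rrm3 repetitions come combined.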

Other observations

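The isolated short free cluster at V 9813 to 10016 shared 51 bp with a 148-bp intergenic stretch of chromosome V amplified as the negative control for Rrm3 ChIP with quantitative PCR. This holds if the primer positions and the lists use the same coordinates, which neither source states. The next Rrm3 clusters lay 2987 bp to the left and 4210 bp to the right, and the nearest Thp1 or Sac3 cluster was at 3469 bp.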
